A study of Bos taurus with 27 samples.

Results

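The transcripts described here belong to the unfolded protein response and the integrated stress response, 2 linked programs by which a cell answers a burden on protein folding or a shortage of amino acids. The 38 members were chosen by gene symbol and not by a rule on their values, but with earlier results of these data known. All 38 symbols were found among the 32637 genes of the table. They comprise 4 stress sensors, 6 transcription factors, 2 phosphatase subunits, 6 targets of the integrated stress response, 11 chaperones and their partners, 5 enzymes of oxidative folding and 4 components of endoplasmic reticulum (ER)-associated degradation. After removal of lowly expressed genes, 36 of the 38 members were among the 12310 genes retained, which had at least 1 CPM, the count per 1e6 counts of the pool, in 12 blastocyst pools. ATF5 and VLDLR were not retained.

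In the unfolded protein response, unfolded proteins in the ER activate the sensors ERN1, EIF2AK3 and ATF6, and the resulting transcription factors, among them spliced XBP1 and cleaved ATF6, raise chaperones, disulfide isomerases and degradation factors. In the integrated stress response, EIF2AK3, EIF2AK4 or related kinases phosphorylate eIF2, which lowers protein synthesis in general while translation of ATF4 increases, and ATF4 then raises genes of amino acid supply. The preimplantation embryo carries both programs, and its trophectoderm is a secretory epithelium. Splicing of XBP1, cleavage of ATF6, phosphorylation of eIF2 and translation of ATF4 are not seen by counts of mRNA, so the values below are mRNA abundance only.

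Counts from 3′ RNA sequencing were analysed for 27 pools of 2 bovine blastocysts. The blastocysts had stage score 7 and quality score 1, and came from oocytes matured in vitro with fluid taken from preovulatory follicles that were of greater maturity or of lesser maturity. The labels do not state which of these treatments, or which fertilization replicate, a pool belonged to, so all 27 pools were described as samples of 1 kind and no treatment comparison was made. Pools are named by the numbers in their labels, and nothing in the labels says that they came from separate cultures. Per the study's methods, the 2 blastocysts of a pool shared treatment and replicate and all pools came from 4 fertilization replicates. The permutations treated the 27 pools as exchangeable, so p-values measure the spread between these pools and do not account for shared replicates.

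The total count per pool was between 10517606 and 44253564, with a median of 22293594, and 3 counts corresponded to between 0.0678 and 0.285 CPM. Intervals and this limit cover counting error only. All 6 trophectoderm markers and all 4 epiblast markers examined were retained, whereas 3 of 5 hypoblast markers were, with SOX17 at a median of 0 CPM and GATA4 at a median of 0.896 CPM. Summed markers of leukocytes were between 1.73 and 16.6 CPM, and those of cumulus and granulosa cells between 3.16 and 32.8 CPM, against 15316 to 38598 CPM for trophectoderm, of which the keratins KRT8 and KRT18 made up most. Because whole blastocysts were sequenced, fewer cells of a type and less RNA per cell cannot be told apart. The 3′ reads were not divided by length, and levels are therefore compared between pools and not between genes.

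All 4 sensors were retained. ERN1, the ER membrane kinase and nuclease that splices XBP1, had 0.136 CPM in the lowest pool, a median of 1.81 CPM and 4.75 CPM in the highest. The lowest value, in pool 14, rested on 4 counts. EIF2AK3, the ER kinase of eIF2 also called PERK, ranged from 4.42 to 20.3 CPM (median, 10.1 CPM). ATF6, the membrane-bound factor that is cleaved on transport to the Golgi, ranged from 16.8 to 49.0 CPM (median, 34.2 CPM). EIF2AK4, the eIF2 kinase also called GCN2 that senses uncharged tRNA, ranged from 18.8 to 53.7 CPM (median, 33.6 CPM). The pool with the highest ATF6, pool 9, was the pool with the lowest EIF2AK4.

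Of the transcription factors, ATF4 had a narrow range in most pools and a single high value. Its abundance was 90.3 CPM in the lowest pool, 137 CPM at the median and 225 CPM in the second highest pool, but 435 CPM in pool 21. XBP1, the factor that ERN1 activates by splicing, was 132 CPM in pool 32, which was the lowest, 204 CPM in the next lowest pool, 281 CPM at the median and 410 CPM in the highest. DDIT3, the C/EBP-family factor also called CHOP that rises under lasting stress, ranged from 6.53 to 33.0 CPM (median, 15.9 CPM). The gene of DDIT3 overlaps that of MARS1 in the annotation, and whether reads were assigned by strand is not stated, so its counts are less certain. ATF3 was between 7.23 and 36.1 CPM, and CREB3L2, an ER-anchored factor, between 0.678 and 4.62 CPM. ATF5 had no count in 12 of the 27 pools and reached 0.752 CPM in the highest, and it overlaps NUP62 and IL4I1.

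Both regulatory subunits that direct protein phosphatase 1 to eIF2, and so end the response, were retained. PPP1R15A, the stress-induced subunit, ranged from 0.285 to 3.39 CPM (median, 1.53 CPM). PPP1R15B, the constitutive subunit, ranged from 29.9 to 84.7 CPM (median, 58.5 CPM). Its 90th percentile over pools was 1.49 times its 10th, the fourth smallest such ratio among the retained members.

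The targets of the integrated stress response included the retained member with the widest spread, CHAC1, and several with a single high value. ASNS, which makes asparagine from aspartate and is a known target of ATF4, was 14.9 CPM in the lowest pool, 32.5 CPM at the median and 63.5 CPM in the second highest pool, and was 106 CPM in pool 21. CHAC1, which degrades glutathione, was 1.21 CPM at the median and 4.58 CPM in the second highest pool, and was 22.7 CPM in pool 21, where 622 reads were counted (95% Wilson interval 21.0 to 24.6 CPM). In the lowest pool only 2 reads of CHAC1 were counted. TRIB3, a pseudokinase that restrains ATF4, ranged from 1.66 to 30.4 CPM (median, 7.34 CPM). DDIT4, an inhibitor of mTORC1, ranged from 1.30 to 14.8 CPM (median, 6.56 CPM). SESN2, which also restrains mTORC1 when leucine is scarce, ranged from 15.3 to 48.1 CPM (median, 27.7 CPM). VLDLR, a lipoprotein receptor, had at least 1 CPM in 5 pools only, with a median of 0.285 CPM and 3.84 CPM in pool 21.

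**Figure D1:**
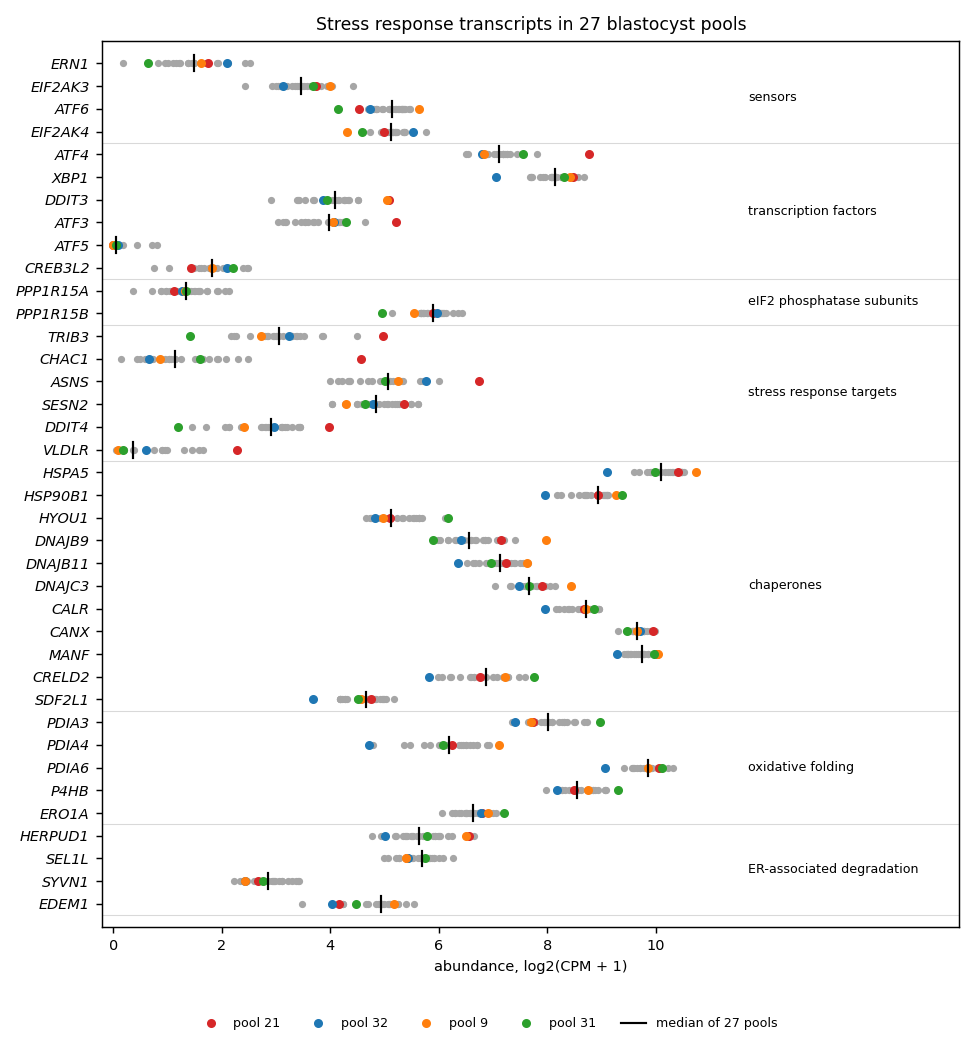
Abundance of each of the 38 members, as log2(CPM + 1) on the horizontal axis, in each of 27 blastocyst pools, with genes grouped by role. Grey points are single pools, the black bar is the median, and pools 21, 32, 9 and 31 are coloured. Pool 21 lies to the right of all other pools for ATF4, ATF3, TRIB3, CHAC1, ASNS, DDIT4 and VLDLR, and pool 32 lies to the left of all others for XBP1, HSPA5 and HSP90B1.

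All 11 chaperones and their partners were retained. HSPA5, the ER HSP70 also called BiP that binds unfolded proteins and holds the sensors inactive, lies on chromosome 11 from 96115158 to 96119452 in ARS-UCD2.0. It was 549 CPM in pool 32, 775 CPM in the next lowest pool, 1098 CPM at the median and 1706 CPM in pool 9, the highest. HSP90B1, the ER HSP90, was between 248 and 661 CPM. HYOU1, an exchange factor for HSPA5, was between 24.5 and 70.9 CPM. The J-domain partners of HSPA5 were DNAJB9, at 58.7 to 250 CPM, DNAJB11, at 80.8 to 199 CPM, and DNAJC3, at 130 to 344 CPM. SDF2L1, which works with DNAJB11, was between 11.8 and 35.3 CPM.

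Glycoproteins fold with the help of lectin chaperones, of which the membrane-bound form was the steadiest member. CANX, the membrane lectin calnexin, ranged from 634 to 1015 CPM (median, 802 CPM), and its 90th percentile was 1.34 times its 10th, the smallest such ratio among the 36 retained members. CALR, the soluble lectin calreticulin, ranged from 247 to 495 CPM (median, 420 CPM). MANF, a small ER protein that binds HSPA5 and can be secreted, ranged from 625 to 1058 CPM (median, 861 CPM), with a ratio of 1.47. CRELD2, an ER protein raised by the unfolded protein response, ranged from 55.7 to 217 CPM (median, 116 CPM).

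Among the enzymes of oxidative folding, the disulfide isomerase PDIA4 spanned the widest range, from 25.3 CPM in pool 32 to 138 CPM in pool 9 with a median of 71.7 CPM. PDIA6, an isomerase that also acts on the sensors, ranged from 536 to 1285 CPM (median, 932 CPM), with a ratio of 90th to 10th percentile of 1.46. P4HB, the founding disulfide isomerase, was between 250 and 630 CPM, and PDIA3, the isomerase that works with calnexin and calreticulin, between 163 and 504 CPM. ERO1A, the oxidase that recharges the isomerases, was between 65.9 and 146 CPM. PDIA4 and PDIA6 each overlap another counted gene, LOC100336368 at a median of 32.1 CPM and ATP6V1C2 at a median of 22.5 CPM.

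The degradation factors were all retained. HERPUD1, a scaffold of the ubiquitin ligase complex that extracts misfolded proteins, ranged from 26.2 to 99.7 CPM (median, 48.8 CPM). SEL1L, the adaptor of that complex, was between 30.8 and 75.9 CPM, and SYVN1, its ubiquitin ligase, between 3.68 and 9.69 CPM. EDEM1, which marks glycoproteins for disposal, was between 10.2 and 45.9 CPM. SYVN1 overlaps MRPL49, which was counted at a median of 59.6 CPM.

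Spread between pools differed by role. The ratio of the 90th to the 10th percentile had a median of 1.76 over the 16 ER folding members, that is, the chaperones with the oxidative folding enzymes, and of 2.77 over the 8 retained members of the integrated stress response (ATF4, DDIT3, ATF3, TRIB3, CHAC1, ASNS, SESN2 and DDIT4), beside 2.18 over all retained genes. The 3 retained members with the largest ratios were CHAC1 at 7.61, ERN1 at 3.81 and TRIB3 at 3.59. Of these ERN1 and CHAC1 were near the abundance limit, where counting error adds to the spread. The biological coefficient of variation from edgeR, which separates counting error from spread between pools, had a median of 24.2% for ER folding members, 40.3% for integrated stress response members and 33.7% for all retained genes. As a ratio to the trend at the same abundance, its median was 1.015 for ER folding members and 1.102 for integrated stress response members. For all retained genes that median was 0.8499. Relative to the trend, the ER folding members were therefore not steadier than retained genes in general. The coefficient was above the trend for 16 of 36 members, or 44.4%, beside 28.5% of all retained genes. It was 96.8% for CHAC1 and 13.5% for CANX. Together the 38 members held between 0.468% of the counts, in pool 32, and 0.829%, in pool 9, with a median of 0.707%.

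Which transcripts rose and fell with HSPA5, the usual readout of ER stress, was asked of all retained genes by Spearman correlation over the 27 pools with 100000 two-sided permutations. With Benjamini-Hochberg adjustment, 15 of 12309 genes were correlated with HSPA5, or 0.122%, and 5 of 35 members were, all positively, beside 0.0894% of all genes in that direction. PDIA4 (rho = 0.776), HERPUD1 (rho = 0.764) and DNAJC3 (rho = 0.759) each had an adjusted p of 0.0246, from a p of 1e-05, which is the smallest that the permutations can give. MANF (rho = 0.723) and PDIA6 (rho = 0.690) each had an adjusted p of 0.0492. Pearson's r of log2(CPM + 1) was 0.774, 0.744, 0.719, 0.773 and 0.758 for PDIA4, HERPUD1, DNAJC3, MANF and PDIA6 in that order, with permutation p between 1e-05 and 5e-05. Without pools 9 and 32, the pools farthest from the median of HSPA5, r was 0.635, 0.709, 0.724, 0.692 and 0.701.

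HSP90B1 was close to these genes (rho = 0.687, adjusted p = 0.0684 by permutation), and XBP1 had rho = 0.556 with an adjusted p of 0.258. At an unadjusted p of 0.05, 15 of 35 members were positive and 0 negative, beside 4.61% of all genes positive. Over the 15 ER folding members other than HSPA5, rho had a median of 0.598 and was positive for 15, beside a median of -0.04 over all genes. CANX (rho = 0.0488) and ERO1A (rho = 0.101) had the lowest values among them. For the 8 members of the integrated stress response the median was 0.148 and none passed an unadjusted p of 0.05, with rho of 0.363 for ATF4 and 0.125 for ASNS. EIF2AK4 and both phosphatase subunits had rho below 0, none of which reached 0.05 without adjustment.

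The adjusted calls changed when single pools were left out, while the correlations moved less. No permutation p could be below 1e-05, so over 12309 genes a call needed several genes at or near that limit. Calls could therefore be lost with little change in rho. No member was called after leaving out pool 6, 9, 24, 32, 42 or 44, because the smallest adjusted p then rose above 0.05, while rho of the 5 genes stayed between 0.694 and 0.749 without pool 9 and between 0.653 and 0.749 without pool 32. Without pool 14 or pool 21 only PDIA4 was called, and between 2 and 6 members were called on leaving out any other pool. Of all 12309 genes, 3 were called without pool 14 and 3 without pool 21. On leaving out those other pools, from 3 (pool 35) to 16 (pool 26) of all genes were called. The edgeR quasi-likelihood test with HSPA5 as a covariate called 10 members among 49 genes, or 0.398% of all genes, and the 5 above were all among them. Pearson's r called 10 members, again with these 5, beside 0.284% of all genes.

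**Figure D2:**
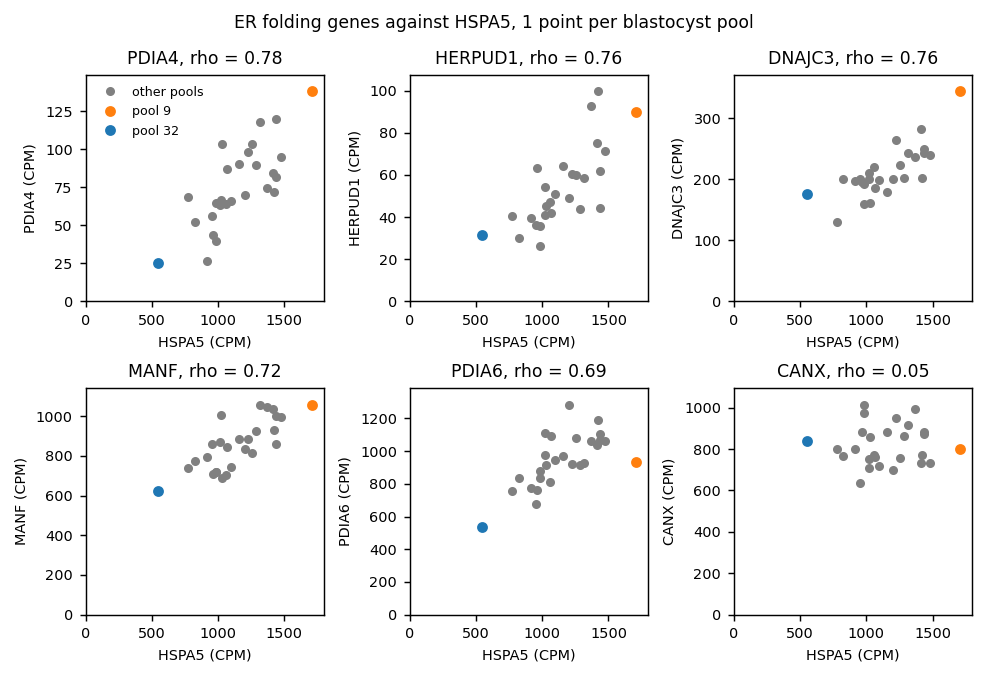
Abundance of PDIA4, HERPUD1, DNAJC3, MANF, PDIA6 and CANX (vertical axes, CPM) against HSPA5 (horizontal axes, CPM), with 1 point per blastocyst pool and Spearman rho above each panel. Pools 9 and 32, at 1706 and 549 CPM of HSPA5, are coloured. The first 5 genes rise with HSPA5 and CANX (rho = 0.05) does not.

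Outside the members, the 5 genes with the highest rho with HSPA5 were MCFD2 (rho = 0.767), TRAM1 (rho = 0.724), SEC63 (rho = 0.720), ACAD11 (rho = 0.706) and URAH (rho = 0.705). MCFD2 is a cargo receptor subunit that carries glycoproteins out of the ER, and TRAM1 and SEC63 act at the channel by which proteins enter it. All but ACAD11, with an adjusted p of 0.0703, had an adjusted p of 0.0492 by permutation. From a wider list of 134 genes of ER entry, folding, traffic, degradation, eIF2 control and ATF4 targets, 123 were tested, and MCFD2 and SEC63 were called. In that list 24 genes were positive and 3 negative at an unadjusted p of 0.05, beside 4.61% of all genes positive and 6.08% negative. The largest share was in ER to Golgi traffic, with 7 of 13 genes positive and a median rho of 0.412, while the tRNA synthetases had a median of -0.01.

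Correlation among members was higher within ER folding than elsewhere. The median rho was 0.385 over the 120 pairs of ER folding members, of which 30.8% had rho of 0.5 or more, beside 1.88% of all pairs of retained genes. It was 0.210 over the 28 pairs of integrated stress response members, of which 0.0% had rho of 0.5 or more, and 0.115 without pool 21. Between these groups it was 0.0638 over 128 pairs, and over all pairs of retained genes it was 0.025. All genes of a pair were measured in the same libraries, so these values are descriptions. The pair HYOU1 and CRELD2 had the highest rho of the 630 pairs of retained members, at 0.861, followed by CRELD2 with P4HB at 0.816 and CRELD2 with PDIA6 at 0.808. The correlation of HYOU1 with PDIA3 was 0.803. EIF2AK3 and XBP1 had rho = 0.677, and DDIT3 and DDIT4 had the highest rho within the integrated stress response, at 0.485. The lowest rho was that of EIF2AK4 with HSP90B1, at -0.604, and PPP1R15B with P4HB was -0.574.

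**Figure D3:**
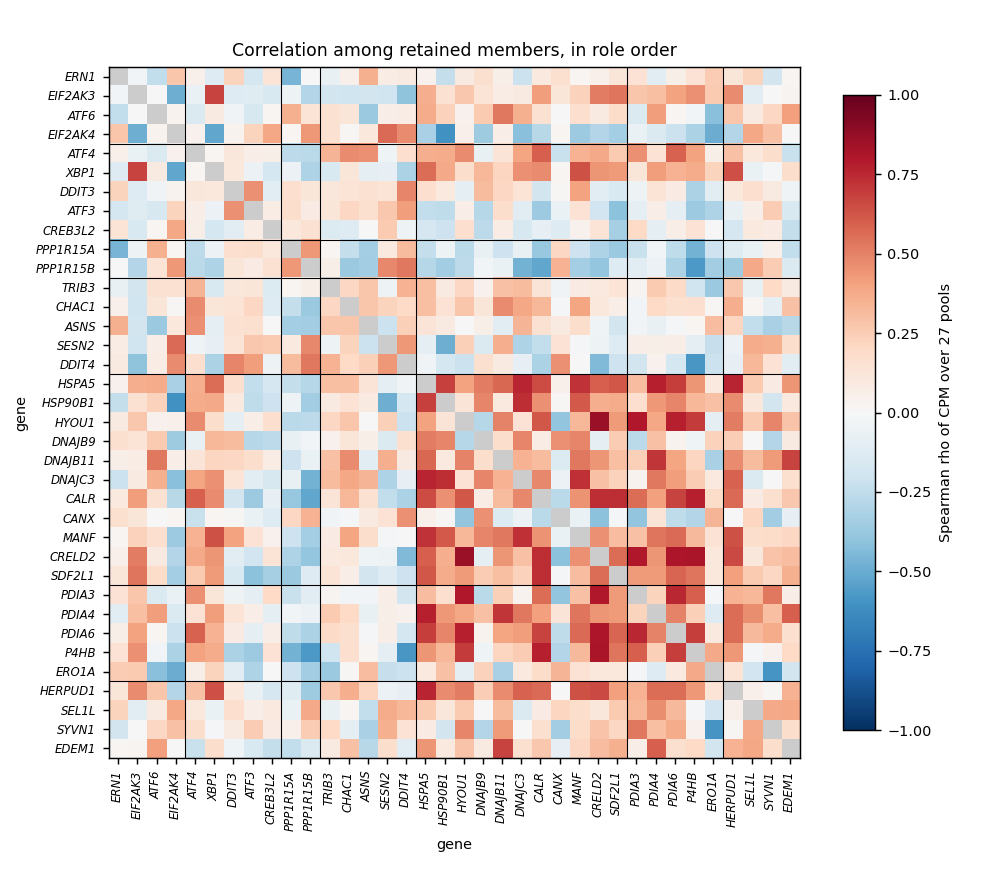
Spearman rho of CPM over 27 blastocyst pools between each pair of the 36 retained members, with genes in role order on both axes, black lines between roles and the colour scale from -1 (blue) to 1 (red). The red block of chaperones and oxidative folding enzymes, with a median of 0.385 over 120 pairs, contrasts with the pale block that joins it to the integrated stress response, with a median of 0.0638 over 128 pairs.

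The summed abundance of 6 trophectoderm markers was tested in the same way, and 778 of 12304 genes were correlated with it, or 6.32%, of which 2.04% of all genes were positive. There were 6 members among them, all positive: P4HB (rho = 0.815, adjusted p = 0.0038), HYOU1 (rho = 0.728, adjusted p = 0.0076), CRELD2 (rho = 0.710, adjusted p = 0.0102), PDIA6 (rho = 0.636, adjusted p = 0.022), PDIA3 (rho = 0.621, adjusted p = 0.0231) and CALR (rho = 0.573, adjusted p = 0.0431). Pearson's r called the same 6 members, beside 7.68% of all genes. It was between 0.570 and 0.859, and between 0.531 and 0.793 without pools 12 and 31, the farthest from the median of the marker sum. HSPA5 had rho = 0.209, PDIA4 rho = 0.103 and DNAJC3 rho = -0.08 with the same sum. PDIA6 was called with both HSPA5 and the marker sum, and the difference between the correlations was not tested.

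The marker sum was mostly KRT8 and KRT18. With the sum taken over CDX2, GATA2, GATA3 and TFAP2A only, HYOU1 (rho = 0.653) and PDIA3 (rho = 0.681) were still called. SYVN1 was called in addition, beside 5.23% of all genes, while rho of P4HB was 0.355 and that of CALR 0.218. Without pool 31, which had the highest marker sum, HYOU1, CRELD2 and P4HB were called, beside 2.35% of all genes. The part of cell makeup in these relations was not tested. No member was called with the total count of the pool, where 0.0% of all genes were, or with summed epiblast or hypoblast markers, where 0.0244% of genes were in each case. At an unadjusted p of 0.05 there were 4 members for the total count, 3 for epiblast and 5 for hypoblast markers, beside 3.4%, 8.03% and 16.5% of all genes.

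**Figure D4:**
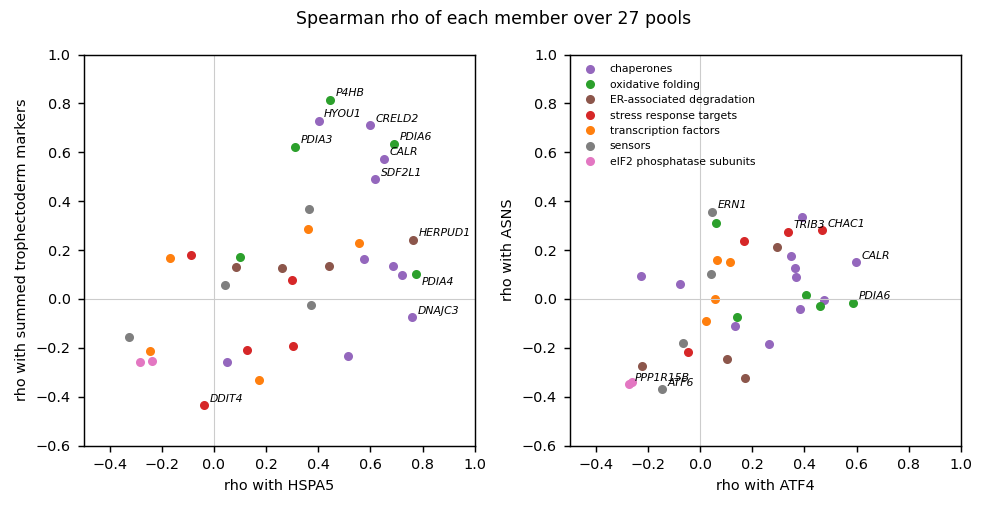
Spearman rho over 27 blastocyst pools of each retained member, coloured by role, with HSPA5 (horizontal) and the summed trophectoderm markers (vertical) on the left, and with ATF4 (horizontal) and ASNS (vertical) on the right. On the left, P4HB, HYOU1 and PDIA3 lie high with rho of 0.815, 0.728 and 0.621 with the markers. HERPUD1, PDIA4 and DNAJC3 lie to the right with rho above 0.75 with HSPA5 and below 0.25 with the markers. Other members lie high on both axes, among them PDIA6, CALR and CRELD2. Their rho was 0.690, 0.652 and 0.598 with HSPA5 and 0.636, 0.573 and 0.710 with the markers.

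The integrated stress response was examined through ATF4 and ASNS. No gene was correlated with ATF4 after adjustment (0 of 12309 genes, or 0.0%), whereas 985 genes, or 8.0%, reached 0.05 without adjustment. Among 35 members 9 were positive at that limit and 0 negative, beside 3.83% of all genes positive. They were CALR (rho = 0.597), PDIA6 (rho = 0.588), HYOU1 (rho = 0.475), CHAC1 (rho = 0.469), ASNS and PDIA3 (each rho = 0.458), P4HB (rho = 0.405), DNAJC3 (rho = 0.393) and CRELD2 (rho = 0.383). Over the 16 ER folding members the median rho with ATF4 was 0.365, and 7 were positive at that limit. Over the 7 other integrated stress response members the median was 0.167, and 2 were positive. For CHAC1, Pearson's r was 0.712 and was 0.255 without pools 21 and 42, and for ASNS it was 0.676 and 0.433. The edgeR and DESeq2 tests with ATF4 as a covariate each called CHAC1 and ASNS. The edgeR test called 0.114% of all genes, and the DESeq2 test called 56 of 12309 genes.

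Likewise, no gene was correlated with ASNS after adjustment (0 of 12309 genes, or 0.0%), whereas 1046 genes, or 8.5%, reached 0.05 without adjustment, and Pearson's r called 8 genes, or 0.065%. Of the members, ATF4 was positive at an unadjusted p of 0.05 (p = 0.0171, adjusted p = 0.497 by permutation). The edgeR test called ATF4 and CHAC1 among 27 genes (0.219%), and the DESeq2 test called ATF4 among 54 of 12309 genes. The genes with the highest rho lay outside the members. They were EPRS1 and TARS1, which charge tRNA with glutamate or proline and with threonine (rho = 0.703 and 0.698), PHGDH, the first enzyme of serine synthesis (rho = 0.679), and RPAIN and MAK16 (rho = 0.703 and 0.700), each with an adjusted p of 0.275. The correlation was positive for 13 of 13 genes in the list of tRNA synthetases with the tRNA exporter XPOT, between 0.185 and 0.703 with a median of 0.507. At an unadjusted p of 0.05, 11 of the 13 were positive, beside 4.2% of all genes. Without pool 21 there were 9 of 13 and the median was 0.448. These 13 genes were also correlated with each other, with a median rho of 0.421 over 78 pairs, so they are not separate observations. Of 18 genes of amino acid synthesis and transport 8 were positive and 0 negative, with a median of 0.354. Without pool 21, 6 of the 18 were positive and 1 negative, with a median of 0.310. The 16 ER folding members had a median rho of 0.0388 with ASNS.

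A single pool stood out in the integrated stress response, as seen after the values were examined. Pool 21 had the highest abundance of all 27 pools for 7 of the 8 retained members of this response, beside 5.54% of all retained genes that were highest in that pool. Relative to the median pool it had 3.16 times the ATF4 (435 CPM, 95% Wilson interval 427 to 443), 2.07 times the DDIT3, 2.45 times the ATF3, 4.14 times the TRIB3, 18.7 times the CHAC1, 3.25 times the ASNS and 2.25 times the DDIT4. The exception was SESN2, at 1.44 times the median pool and the fifth highest value. The margin over the second highest pool was smallest for DDIT3, at 33.0 against 32.2 CPM, and MARS1, which overlaps DDIT3, was also highest in pool 21. The margin was largest for CHAC1, at 22.7 against 4.58 CPM.

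The ER folding members did not stand apart in pool 21. Their median ratio to the median pool was 1.07, beside 2.81 for the integrated stress response and 1.00 for all retained genes. HSPA5 was 1366 CPM there, at 1.24 times the median pool, and HERPUD1 was 92.8 CPM, the second highest value. In a wider list of 40 retained ATF4 target genes, 20 were highest in pool 21, and the median ratio to the median pool was 1.68. The 20 included genes of serine synthesis, with PHGDH at 9.31 times, PSAT1 at 6.43 times and PSPH at 6.23 times the median pool. Also among them were the proline enzyme PYCR1 at 10.3 times, the amino acid transporters SLC7A1 at 5.62 times and SLC1A4 at 5.12 times, and the synthetase CARS1 at 3.74 times. Other genes of the list lay below the median pool, among them KLHL24 at 0.717 times, GPT2 at 0.633 times and JDP2 at 0.498 times. The total count of pool 21 was 27366102, and its summed lineage markers lay within the range of the other pools. With 1 pool, there is no replicate of this pattern.

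**Figure D5:**
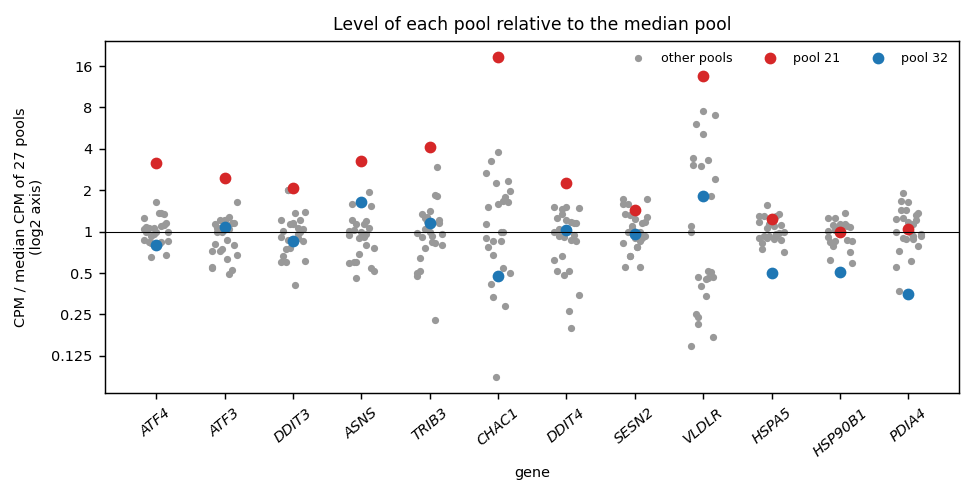
Abundance of 12 members in each of 27 blastocyst pools divided by the median of the 27 pools, on a log2 axis, with 1 point per pool and pools 21 and 32 coloured. Pool 21 lies highest for ATF4, ATF3, DDIT3, ASNS, TRIB3, CHAC1, DDIT4 and VLDLR, up to 18.7 times the median for CHAC1, and near 1 for HSP90B1 and PDIA4, whereas pool 32 lies lowest for HSPA5, HSP90B1 and PDIA4.

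Pool 32 was low in most of the ER folding members, which was also seen after the values were examined. It had the lowest abundance of 10 members, namely XBP1, HSPA5, HSP90B1, DNAJB11, CALR, MANF, CRELD2, SDF2L1, PDIA4 and PDIA6, of which 9 were among the 16 ER folding members, beside 3.68% of all retained genes that were lowest in that pool. The ratio to the median pool was 0.50 for HSPA5, 0.472 for XBP1 and 0.353 for PDIA4, with a median of 0.621 over the ER folding members and 1.02 over all retained genes. CANX, at 1.04 times, and ERO1A, at 1.11 times, were not low. Over 64 retained ER genes of the wider list the median ratio was 0.927, and 10 of them were lowest in pool 32. The integrated stress response members had a median ratio of 0.996, and ASNS was 1.64 times the median pool. Of the 40 wider ATF4 targets 8 were highest in pool 32, among them AARS1, LARS1, SARS1 and XPOT, beside 7.25% of all retained genes that were highest there. The median ratio over these 40 targets was 1.29. The total count of pool 32, 15451661, was the sixth lowest. Its summed trophectoderm markers, 18292 CPM, were the second lowest, its summed leukocyte markers, 13.7 CPM, the second highest, and its summed cumulus and granulosa markers, 4.27 CPM, the second lowest of the 27 pools.

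Many of the highest values of the ER folding members lay in 2 other pools. The highest values of CANX, SDF2L1, MANF, DNAJB11, PDIA6 and CALR lay elsewhere, in pools 1, 19, 23, 28, 36 and 42 in that order. Pool 9 was highest for ATF6, HSPA5, DNAJB9, DNAJC3 and PDIA4, beside 7.37% of all retained genes highest in that pool, and it had the lowest summed hypoblast markers, 44.1 CPM, and the highest summed leukocyte markers, 16.6 CPM. Pool 31 was highest for HSP90B1, HYOU1, CRELD2, PDIA3, P4HB and ERO1A, beside 9.2% of all retained genes, and had the highest summed trophectoderm markers and the lowest summed leukocyte and cumulus markers. It was lowest for ATF6, PPP1R15B, TRIB3, DDIT4 and DNAJB9, beside 18.0% of all retained genes. DNAJB9 was therefore at its highest, 250 CPM, in the pool with the highest HSPA5, and at its lowest, 58.7 CPM, in the pool with the highest HYOU1. The part of these markers in the values of pools 9, 31 and 32 was not tested.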

How the data were processed

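Per the study's methods and the labels, the authors used fastp to trim the first reads of 3′ RNA sequencing, STAR to map them to ARS-UCD2.0 and featureCounts to count them. The deposited values are raw counts of 32637 genes that were not normalized. Tool versions, the annotation release and the strand setting of counting are not given in the sources used here. CPM was calculated from column totals, which were 10517606 to 44253564. The filter of the study, 1 CPM or more in 12 or more pools, was applied. No 2 of the 351 pairs of pools held the same counts within counting error (chi-square per degree of freedom at least 23.9).

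The labels assign no treatment or replicate to a pool, so relations could not be recomputed within batches. For every retained gene, the Spearman correlation of CPM and the Pearson correlation of log2(CPM + 1), a pseudocount of 1, were calculated with HSPA5, ATF4, ASNS, the total count and 3 sums of lineage markers. These 7 families used 100000 two-sided permutations of the pools and Benjamini-Hochberg adjustment at 0.05 within each. Alternatives used TMM scaling and the quasi-likelihood test of edgeR 4.0.16, size factors and the Wald test of DESeq2 1.42.0, thinned counts, other filters and a pseudocount of 0.1. The software was R 4.3.3, scipy 1.17.1, pandas 2.3.3, numpy 2.4.6 and Python 3.11.15. The Spearman and Pearson permutation tests and the edgeR quasi-likelihood test were tried on simulated data. Gene positions and overlaps came from the RefSeq gene table of ARS-UCD2.0. Promoter motifs were not analysed here.

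The members, lists and tests were chosen with earlier results of these data known. Values were given for HSPA5, ATF4, ASNS, DDIT3, XBP1, the members called, the 3 retained members with the largest and the 3 with the smallest ratio of 90th to 10th percentile, and the 5 other genes with the highest rho with HSPA5 and with ASNS. All other members were given by range. The wider list was given by counts and by the genes with the largest rho, and its genes named for pools 21 and 32 were chosen after their values were seen.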

Additional observations from a re-analysis of the deposited data

How the results depend on the processing

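The 5 members called with HSPA5 were 8 with TMM scaling, 9 with DESeq2 size factors, 10 with Pearson's r at a pseudocount of 1 or 0.1, 10 with the edgeR test, 12 with the DESeq2 test, 3 with no filter on low counts and 4 with thinned counts. The share of all genes called moved as well, from 0.122% to 0.309%, 0.301%, 0.284%, 0.26% and 0.398% in that order up to the edgeR test. The DESeq2 test called 239 of 12309 genes, and the share was 0.0203% with no filter and 0.0812% with thinned counts. The count of members was 0 without pool 9 and 0 without the 2 pools farthest from the median. In alternatives chosen after seeing the data, it was 1 without pool 21, 0 without pool 32 and 0 to 6 on leaving out each pool in turn. Of all genes, 0.0% were called without pool 9, without those 2 pools or without pool 32, and 0.0244% without pool 21. None of the 5 changed direction. For ATF4, 0 members became 2 with edgeR and 2 with DESeq2, and for ASNS, 0 became 2 and 1. For the 6 members called with trophectoderm markers, the alternatives were all chosen after seeing the data. The count was 6 with TMM scaling and with Pearson's r, and 3 without KRT8 and KRT18, of which 2 were the same. It was 3 without pool 31 and 3 to 6 on leaving out each pool. The share of all genes called, 6.32%, was 6.31% with TMM scaling and 7.68% with Pearson's r. Without KRT8 and KRT18 that share was 5.23%, and without pool 31 it was 2.35%. The median rho among ER folding members, 0.385, was 0.482 with TMM scaling, 0.425 with Pearson's r and 0.340 without pool 32 (0.340 to 0.414 on leaving out each pool). That among integrated stress response members, 0.210, was 0.314 with Pearson's r and 0.115 without pool 21 (0.115 to 0.246). The median ratio of highest to lowest pool, 3.10, was 3.27 with TMM scaling and 3.04 without pool 9. The number of members retained was 37 at 0.5 CPM and 34 at 2 CPM. No paired analysis was possible because the labels give the pools no group or replicate number. Single reads limit CHAC1, ERN1, PPP1R15A, ATF5 and VLDLR, since 1 CPM was as few as 10.5 counts.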

Other observations

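The gene with the strongest correlation with HSPA5 among all 12309 genes was negative and outside the members. SLC39A3, a zinc transporter at a median of 5.57 CPM, had rho = -0.841 (adjusted p = 0.0246 by permutation), and r = -0.744 became -0.767 without pools 9 and 32. It was chosen for naming after seeing its values.

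Genes of the wider list that followed HSPA5 without passing adjustment included BET1, which acts in ER to Golgi traffic (rho = 0.673, adjusted p = 0.0739), and OSTC, a subunit of the glycosylation complex (rho = 0.664, adjusted p = 0.107). With ATF4, the highest rho in that list was that of UGGT1, the folding sensor of glycoproteins (rho = 0.687, adjusted p = 0.328), followed by the transporter SLC1A4 (rho = 0.615, adjusted p = 0.428). The correlation of UGGT1 with ATF4 was among the highest of all genes, although none passed adjustment.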
